A study of Rattus norvegicus with 24 samples.

Results

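The 7 basement membrane and matrix genes described here, Col4a1, Col4a2, Lamb3, Thbs1, Dcn, Tgfbi and Fbln1, were chosen by symbol with their levels in these libraries already known. A row under its symbol was found for 6 of the 7 among the 17055 genes counted; Col4a2 is not analysed here. RNA came from PC12, a line of rat pheochromocytoma cells, which derive from the neural crest. Per the labels there were 24 libraries, 3 replicates of each of 2 stable lines at 6 h, 24 h, 3 d and 10 d. The vector line carried the empty expression plasmid pcDNA3. The α1ACT line carried human α1ACT, a transcription factor that is translated from the transcript of the calcium channel gene CACNA1A. Both lines were at passages 18 to 20 in medium with horse and fetal bovine serum and received no treatment that the labels name. The labels hold 1 stable line of each kind, so the transgene and any other difference between those lines cannot be told apart. What the times were counted from is not given in the sources used here. Rat Cacna1a stood at 10.1 to 20.9 CPM (read counts scaled to the depth of the library) over the libraries, and counts of the human transgene were not analysed here, so the labels of the lines were not checked by it.

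The labels and the names of the deposited tables disagreed on the time for 18 of the 24 libraries and on the line as well for 12 of those, while the replicate number matched in all 24. Vector 6 h and α1ACT 10 d carried the same line and time in both. The other 6 groups did not: α1ACT 6 h was named for vector 24 h, vector 24 h for vector 3 d, α1ACT 24 h for vector 10 d, vector 3 d for α1ACT 6 h, α1ACT 3 d for α1ACT 24 h, and vector 10 d for α1ACT 3 d. Groups below are those of the labels. The time in the file name is given beside them, because a difference called a line difference under the labels is a time difference under the file names at every labelled time. Under the file names, the labelled comparisons of 3 d with 6 h and of 10 d with 24 h are comparisons of the lines at the same time. Which of the 2 is right cannot be told apart with these values.

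Depth on genes ranged from 8679560 to 14486248 counts per library, so 3 counts in a library stood at 0.207 to 0.346 CPM. Of the reads counted as in a gene, outside genes or ambiguous, between 47.8% and 52.9% per library fell outside annotated genes. Group means of this share at labelled 6 h, 24 h, 3 d and 10 d were 48.7%, 50.4%, 48.8% and 50.9% in vector. In α1ACT they were 49.6%, 51.6%, 49.9% and 52.5%. By file names, vector and α1ACT were at 48.7% and 48.8% at 6 h and at 49.6% and 49.9% at 24 h. They were at 50.4% and 50.9% at 3 d and at 51.6% and 52.5% at 10 d. The part of this share in the results was not tested. All 11 chromaffin markers with a row were detected in every library. Of 8 fibroblast markers, Col1a2, Pdgfrb, Lum and Fap were at 0 throughout and the summed level was 0 to 0.587 CPM. Of 6 endothelial markers, Kdr and Tie1 were at 0 and the sum was 0.337 to 2.13 CPM. Of 6 epithelial markers, the surface keratins Krt5 and Krt14 were at 0 and at 1 count in all. Krt8, Epcam and Krt18 were detected in every library, with means of 634, 216 and 67.8 CPM, and Cdh1 averaged 1.35 CPM. Libraries are bulk, so fewer cells of a type and less RNA per cell cannot be told apart.

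Basement membranes are thin sheets of extracellular matrix built on separate networks of type IV collagen and laminin, to which nidogens and heparan sulfate proteoglycans bind. Col4a1 and Col4a2 encode the chains of the most widespread type IV collagen, and Lamb3 encodes a laminin chain of epithelial basement membranes. Thbs1 (thrombospondin) and Tgfbi (a matrix protein named for its induction by TGF-β) are secreted proteins that bind cells to matrix or signal to them. Dcn (decorin) is a small proteoglycan that binds collagen fibrils and TGF-β, and Fbln1 (fibulin) is a glycoprotein of basement membranes and elastic fibres. Chromaffin cells lie on basement membranes beside capillaries in the adrenal medulla.

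The members did not share a pattern over the 8 groups. Col4a1 was high in vector 24 h and vector 10 d, Thbs1 in vector 6 h and vector 3 d, Tgfbi in α1ACT 24 h and α1ACT 10 d, and Dcn in α1ACT 6 h and α1ACT 3 d. Each of these pairs of groups carries the same time in its file names, which is 3 d for Col4a1, 6 h for Thbs1, 10 d for Tgfbi and 24 h for Dcn. Lamb3 and Fbln1 had higher means in the α1ACT line than in the vector line at all 4 labelled times. These levels were what the genes were chosen by, so fold changes and calls of members (adjusted p under 0.05 in edgeR) are given as a description, with no p-value and nothing read from them. The same holds where libraries of the lines are said not to overlap. Of all genes tested, 51.8% had no overlap between the lines at 6 h, 60.4% at 24 h, 52.5% at 3 d and 63.0% at 10 d.

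**Figure D1:**
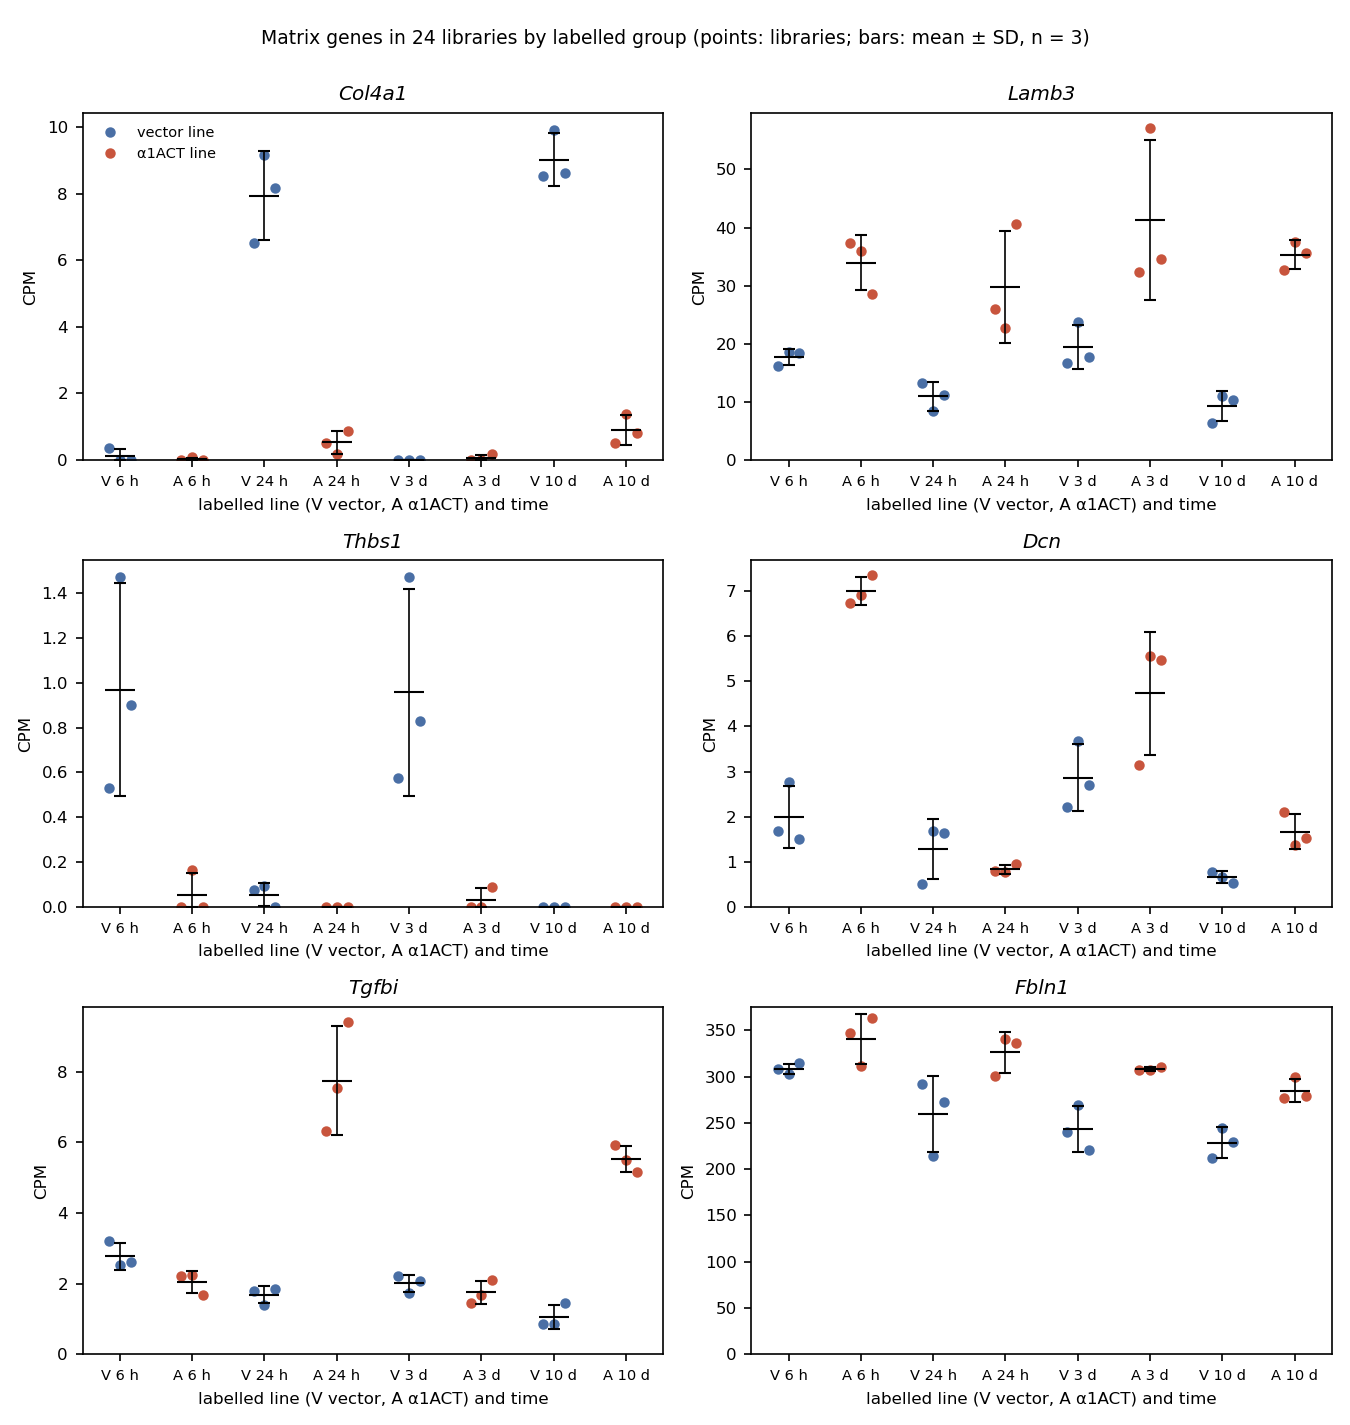
CPM of the 6 measured members (vertical axes, each from 0) in every library, by labelled line (V vector, A α1ACT) and time. Points are libraries, and bars are the mean ± SD of 3 libraries with the lower arm cut at 0. Col4a1 stands at 6.52 to 9.93 CPM in vector 24 h and vector 10 d and at 1.38 CPM or lower elsewhere.

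Col4a1 was the type IV collagen chain that could be measured, and nearly all of its counts lay in 2 groups. Vector 24 h had 88, 98 and 119 counts, which were 6.52, 9.15 and 8.16 CPM (7.94 ± 1.33, SD, n = 3). Vector 10 d had 109, 118 and 114 counts, which were 8.52, 9.93 and 8.63 CPM (9.02 ± 0.783, SD, n = 3). α1ACT 10 d followed with 5, 13 and 7 counts (0.90 ± 0.443 CPM, SD, n = 3) and α1ACT 24 h with 6, 2 and 11 counts (0.532 ± 0.342 CPM, SD, n = 3). The remaining 4 groups were near 0: vector 6 h had 4, 0 and 0 counts, α1ACT 6 h 0, 1 and 0, α1ACT 3 d 0, 0 and 2, and vector 3 d none, which allows up to 0.0917 CPM over the group. The 6 libraries of vector 24 h and vector 10 d lay above the other 18, and their ranges overlapped each other.

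Col4a1 was 14-fold lower in the α1ACT line than in the vector line at 24 h (log2 fold change −3.81 ± 0.35, SE) and 9.96-fold lower at 10 d (−3.32 ± 0.33, SE), with no overlap at either time. At 6 h the summed counts were 1 in α1ACT and 4 in vector, a ratio of 4.39 with an exact 95% counting interval of 0.435 to 216, and at 3 d both groups held 3 counts or fewer, so no fold is given. Within the vector line, Col4a1 was 64.5-fold higher at 24 h than at 6 h (counting interval 24.9 to 238). All 4 of the 6 h counts came from replicate 1, and without it the 24 h level was at least 56.5-fold higher against a floor of 3 counts over the group. Without replicate 2 or 3 of vector 6 h the ratio was 41.8 or 44.8. At 10 d it was at least 98.1-fold higher than at 3 d. Leaving out a library of vector 3 d lowers that bound to between 61.6 and 69.2, since the floor then rests on fewer libraries. Within the α1ACT line the ratio of 24 h to 6 h was 20.0 (3.18 to 830) and that of 10 d to 3 d was 16.0 (4.00 to 140). Both rest on a library with 1 or 2 counts: without α1ACT 6 h replicate 2 the former became at least 4.44-fold, and without α1ACT 3 d replicate 3 the latter at least 7.42-fold. With any other single library left out they ranged from 13.2 to 25.6 and from 10.2 to 20.0. These intervals and floors cover counting error only. By file names, the 6 libraries of 3 d held 646 counts, the 6 of 10 d held 44, the 6 of 6 h held 4 and the 6 of 24 h held 3. The log2 fold change between the libraries named for the α1ACT and vector lines at file-name 3 d was 0.19 ± 0.22 (SE), and at file-name 10 d it was 0.69 ± 0.57 (SE).

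The start of Col4a1 is shown because the annotation places the Col4a2 start in the same stretch. In RefSeq on build GRCr8, the window from 250 bases before to 50 bases after the Col4a1 start is chr16:84885347-84885646 on the plus strand, and that of Col4a2 is chr16:84885471-84885770 on the minus strand. The starts lie 77 bases apart, transcribed away from each other, and the windows share 176 bases. The Col4a1 window has 75.0% G or C, against a median of 51.7% over all rat promoter windows in the table, and it is printed 5′ to 3′ on the Col4a1 strand with matches to CCAAT and GGGCGG, on either strand, in capitals.
Col4a1: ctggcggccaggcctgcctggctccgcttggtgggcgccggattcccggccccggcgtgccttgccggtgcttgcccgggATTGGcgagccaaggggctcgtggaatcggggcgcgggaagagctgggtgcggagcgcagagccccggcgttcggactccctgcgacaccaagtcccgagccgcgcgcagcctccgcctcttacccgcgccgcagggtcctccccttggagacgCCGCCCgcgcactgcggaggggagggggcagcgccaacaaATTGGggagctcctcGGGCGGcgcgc
CCAAT matches lie at bases −170 to −166 and 25 to 29 from the start, and GGGCGG matches at −16 to −11 and 40 to 45. In all 33469 windows, 37.5% hold CCAAT and 33.1% hold GGGCGG on either strand. TATAAA, held by 14.2%, TGACGTCA, held by 1.83%, and TGANTCA, held by 7.33%, are not in this window. A match describes the letters and is no evidence of binding. The builds differ, since the counts were made on rn5.

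Lamb3, the epithelial laminin chain, had a higher mean in the α1ACT line at each labelled time, and the libraries of the lines did not overlap within a time. At 6 h the vector libraries stood at 16.1, 18.6 and 18.4 CPM (17.7 ± 1.37, SD, n = 3) and the α1ACT libraries at 37.3, 36.0 and 28.6 CPM (34.0 ± 4.69, SD, n = 3), a log2 fold change of 0.94 ± 0.22 (SE). At 24 h they stood at 13.3, 8.40 and 11.2 CPM and at 25.9, 22.7 and 40.7 CPM, a log2 fold change of 1.44 ± 0.23 (SE). Both times put every α1ACT library above every vector library. At 3 d the vector libraries were at 16.7, 23.8 and 17.7 CPM and the α1ACT libraries at 32.3, 57.2 and 34.5 CPM, with a log2 fold change of 1.09 ± 0.21 (SE). At 10 d they were at 6.41, 11.1 and 10.4 CPM and at 32.7, 37.6 and 35.7 CPM, which gave the largest of the 4 log2 fold changes, 1.93 ± 0.24 (SE) or 3.80-fold. The spread within a group was uneven: replicate 2 of α1ACT 3 d and replicate 3 of α1ACT 24 h stood well above the other libraries of their groups. In order of the means, α1ACT 3 d, 10 d, 6 h and 24 h were followed by vector 3 d, 6 h, 24 h and 10 d. The only neighbours in that order whose libraries did not overlap were vector 6 h and vector 24 h.

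Within the vector line Lamb3 was 1.60-fold lower at 24 h than at 6 h (log2 fold change −0.68 ± 0.24, SE) and 2.09-fold lower at 10 d than at 3 d (−1.07 ± 0.25, SE). The call at 24 h was lost without replicate 2 of vector 6 h, without replicate 2 of vector 24 h and without the libraries numbered 3. In the α1ACT line the same log2 fold changes were −0.18 ± 0.20 and −0.23 ± 0.20 (SE). By file names, the 6 libraries of 3 d were the lowest of the 24, at 13.3 CPM or less against 16.1 CPM or more elsewhere. The summed level of 6 epithelial markers, most of it Krt8, Epcam and Krt18, averaged 1608, 484, 1417 and 489 CPM in vector 6 h, 24 h, 3 d and 10 d and 991, 658, 1001 and 708 CPM in the α1ACT line. It was lower in α1ACT than in vector at 6 h and 3 d and higher at 24 h and 10 d, whereas Lamb3 was higher in α1ACT at all 4. The part of these markers in the level of Lamb3 was not tested. The Lamb3 start lies on the plus strand at chr13:107362303-107362602 (RefSeq, GRCr8), with 59.3% G or C. It is shown as the window that holds TGACGTCA among the 5 members with a window. For Dcn and Fbln1 no window was at hand to search.
Lamb3: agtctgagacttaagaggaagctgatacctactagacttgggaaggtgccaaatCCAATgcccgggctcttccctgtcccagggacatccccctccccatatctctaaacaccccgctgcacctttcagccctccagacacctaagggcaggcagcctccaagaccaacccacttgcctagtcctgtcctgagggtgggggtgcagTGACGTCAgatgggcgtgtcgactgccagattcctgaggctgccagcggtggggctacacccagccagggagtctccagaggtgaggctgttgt
Capitals mark CCAAT at bases −196 to −192 and TGACGTCA, the palindromic cyclic AMP response element, at −44 to −37. That element is in 1.83% of all rat windows, and nothing about the factor that binds it was measured here.

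Thbs1, whose product inhibits angiogenesis and activates latent TGF-β, was detected at low counts and mostly in 2 groups. Vector 6 h had 6, 17 and 9 counts (0.968 ± 0.474 CPM, SD, n = 3) and vector 3 d had 7, 16 and 8 counts (0.958 ± 0.461 CPM, SD, n = 3). Outside these groups there were 5 counts in 18 libraries: 0, 2 and 0 in α1ACT 6 h, 1, 1 and 0 in vector 24 h, 0, 0 and 1 in α1ACT 3 d, and none in α1ACT 24 h, vector 10 d and α1ACT 10 d. The 6 libraries with most counts, which are those whose file names say 6 h, held 63 of the 68 counts and lay above all others, at 0.532 CPM or more against 0.167 CPM or less. In both high groups replicate 2 was the highest. A count of 0 in the 3 libraries of α1ACT 10 d allows up to 0.107 CPM over the group.

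At 6 h the summed Thbs1 counts were 32 in vector and 2 in α1ACT, which is 17.6-fold lower in α1ACT with an exact counting interval of 4.48 to 151. At 3 d they were 31 and 1, which is 34.0-fold lower with an interval of 5.66 to 1385. Without α1ACT 6 h replicate 2, which held both counts of its group, the former became at least 7.81-fold, and without α1ACT 3 d replicate 3 the latter became at least 7.86-fold, against a floor of 3 counts over the group. With any other single library left out they ranged from 11.6 to 21.7 and from 21.7 to 41.9. At 24 h and 10 d both lines were at or under that floor. Within the vector line, Thbs1 was 18.9-fold lower at 24 h than at 6 h (4.82 to 163) and at least 11.97-fold lower at 10 d than at 3 d. Without vector 24 h replicate 3 the former was 11.8-fold, and with a library of vector 10 d left out the bound of the latter fell to between 7.80 and 8.22. Vector 3 d and vector 6 h, the lines at file-name 6 h, differed by a log2 fold change of −0.04 ± 0.47 (SE). The Thbs1 start lies on the plus strand at chr3:125510000-125510299 (RefSeq, GRCr8), with 67.0% G or C.
Thbs1: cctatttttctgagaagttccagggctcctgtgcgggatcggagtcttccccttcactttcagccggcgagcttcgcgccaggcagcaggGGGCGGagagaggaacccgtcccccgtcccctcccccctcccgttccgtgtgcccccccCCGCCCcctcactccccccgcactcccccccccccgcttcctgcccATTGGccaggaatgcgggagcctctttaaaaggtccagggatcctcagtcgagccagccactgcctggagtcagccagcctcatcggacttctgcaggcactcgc
Capitals mark GGGCGG or its complement at bases −160 to −155 and −101 to −96 and the complement of CCAAT at −55 to −51. The window is shown because Thbs1 and Col4a1 were high in different groups of the vector line, and both windows hold CCAAT and GGGCGG.

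Tgfbi was high in the α1ACT line at 24 h and 10 d and low in the other 6 groups. α1ACT 24 h stood at 6.33, 7.54 and 9.41 CPM (7.76 ± 1.55, SD, n = 3) against 1.78, 1.40 and 1.85 CPM in vector 24 h (1.68 ± 0.242, SD, n = 3), which was 4.57-fold higher (log2 fold change 2.19 ± 0.19, SE). α1ACT 10 d stood at 5.92, 5.51 and 5.16 CPM against 0.859, 0.841 and 1.44 CPM in vector 10 d, which was 5.21-fold higher (2.38 ± 0.23, SE). In neither comparison did the libraries come near each other. At 6 h the vector libraries were at 3.19, 2.51 and 2.60 CPM and the α1ACT libraries at 2.22, 2.25 and 1.69 CPM. There the α1ACT libraries were the lower ones without overlap, with a log2 fold change of −0.43 ± 0.23 (SE) that did not pass the threshold. At 3 d the lines overlapped, at 2.22, 1.75 and 2.07 CPM in vector and 1.46, 1.68 and 2.10 CPM in α1ACT (−0.22 ± 0.25, SE).

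Within the α1ACT line Tgfbi was 3.78-fold higher at 24 h than at 6 h and 3.18-fold higher at 10 d than at 3 d. Within the vector line it was 1.63-fold lower (log2 fold change −0.70 ± 0.23, SE) and 1.90-fold lower (−0.93 ± 0.27, SE) in the same comparisons. The first of these vector calls was lost without replicate 1 of vector 6 h, and both were lost without the libraries numbered 1. By file names, the 6 libraries of 10 d stood at 5.16 CPM or more and the other 18 at 3.19 CPM or less. Labelled 3 d and 10 d together were lower than 6 h and 24 h together by a log2 fold change of −0.47 ± 0.12 (SE), a contrast that under the file names is α1ACT against vector averaged over the times. That call was lost without the libraries numbered 1. The start of Tgfbi, on the minus strand at chr17:7990064-7990363 (RefSeq, GRCr8, 66.7% G or C), is shown beside that of Thbs1 because their products both bind integrins on cells.
Tgfbi: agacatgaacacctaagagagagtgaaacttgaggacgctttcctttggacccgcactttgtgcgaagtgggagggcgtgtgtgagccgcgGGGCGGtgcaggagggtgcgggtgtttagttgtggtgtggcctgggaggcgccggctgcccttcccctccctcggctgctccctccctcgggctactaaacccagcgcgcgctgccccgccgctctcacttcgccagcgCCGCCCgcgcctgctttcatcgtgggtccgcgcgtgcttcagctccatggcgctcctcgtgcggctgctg
Capitals mark GGGCGG or its complement at bases −159 to −154 and −20 to −15. The other 4 motifs searched are not in this window.

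Dcn, the collagen-binding proteoglycan, was highest in α1ACT 6 h, at 6.73, 6.92 and 7.34 CPM (7.0 ± 0.310, SD, n = 3). α1ACT 3 d followed at 3.15, 5.56 and 5.47 CPM, below α1ACT 6 h without overlap, and vector 3 d was at 2.22, 3.68 and 2.70 CPM. Vector 6 h was at 1.69, 2.77 and 1.5 CPM, α1ACT 10 d at 2.11, 1.38 and 1.53 CPM, and vector 24 h at 0.519, 1.68 and 1.65 CPM. The lowest groups were α1ACT 24 h, at 0.791, 0.773 and 0.957 CPM, and vector 10 d, at 0.781, 0.673 and 0.530 CPM. Below α1ACT 6 h, each group overlapped its neighbour in this order. By file names, the 6 libraries of 24 h stood at 3.15 to 7.34 CPM and overlapped those of other times, which reached 3.68 CPM. For α1ACT against vector by file names, the log2 fold change was 0.50 ± 0.31 at 6 h and −0.58 ± 0.22 at 24 h (SE). At 3 d it was −0.93 ± 0.43 and at 10 d 0.98 ± 0.42 (SE). None passed. The file-name lines did not overlap at 24 h and 10 d, as held for 16.4% and 20.0% of all genes tested.

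At 6 h Dcn was 3.47-fold higher in α1ACT than in vector (log2 fold change 1.80 ± 0.26, SE), with no overlap. At 3 d it was 1.64-fold higher (0.72 ± 0.26, SE) with overlapping libraries, and at 10 d 2.52-fold higher (1.33 ± 0.43, SE) without overlap, while the value at 24 h was −0.58 ± 0.41 (SE) and did not pass. The 3 d call was lost with DESeq2 and, in edgeR, without vector 3 d replicate 1 or 3, without α1ACT 3 d replicate 2 or 3 and without the libraries numbered 3. The 10 d call was lost without α1ACT 10 d replicate 1 and without the libraries numbered 3. Without vector 24 h replicate 1, the lowest Dcn library of its group, the 24 h value became −0.97. Within the α1ACT line Dcn was 8.18-fold lower at 24 h than at 6 h (−3.03 ± 0.31, SE) and 2.78-fold lower at 10 d than at 3 d (−1.47 ± 0.30, SE). Within the vector line it was 4.26-fold lower at 10 d than at 3 d (−2.09 ± 0.37, SE), and the value for 24 h against 6 h was −0.66 ± 0.35 (SE).

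Fbln1 differed least between groups. Its lowest library stood at 212 CPM and its highest at 364 CPM. The α1ACT libraries were at 347, 311 and 364 CPM at 6 h, 301, 341 and 336 CPM at 24 h, 308, 307 and 310 CPM at 3 d, and 277, 299 and 278 CPM at 10 d. The vector libraries were at 308, 302 and 314 CPM at 6 h, 292, 214 and 273 CPM at 24 h, 240, 270 and 221 CPM at 3 d, and 212, 245 and 230 CPM at 10 d. The lines did not overlap at 24 h, 3 d and 10 d, where Fbln1 was 1.25-fold, 1.26-fold and 1.25-fold higher in α1ACT (log2 fold change 0.33 ± 0.08, 0.34 ± 0.08 and 0.32 ± 0.08, SE). At 6 h they overlapped and the value, 0.14 ± 0.08 (SE), did not pass. The 3 d call was lost without the libraries numbered 3. By file names, the highest mean was at 24 h, where the 6 libraries stood at 307 to 364 CPM and overlapped those of other times, which reached 341 CPM.

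In the comparisons of 2 groups that are line comparisons under the file names, Fbln1 was the only member with a call. It was lower in vector 3 d than in vector 6 h by a log2 fold change of −0.34 ± 0.08 (SE). That call was lost without any replicate of vector 6 h or without replicate 1 or 3 of vector 3 d. The values for α1ACT 3 d against 6 h, vector 10 d against 24 h and α1ACT 10 d against 24 h were −0.14 ± 0.08, −0.19 ± 0.08 and −0.19 ± 0.08 (SE) and did not pass. Over both pairs of times, labelled 3 d and 10 d were lower than 6 h and 24 h by −0.22 ± 0.04 (SE), a call lost without the libraries numbered 1 or 3. Tgfbi was also called in that pooled comparison, at −0.47 ± 0.12 (SE). In the vector line, Fbln1 was also lower at 24 h than at 6 h, by −0.24 ± 0.08 (SE), a call lost without vector 24 h replicate 2 and without the libraries numbered 3.

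**Figure D2:**
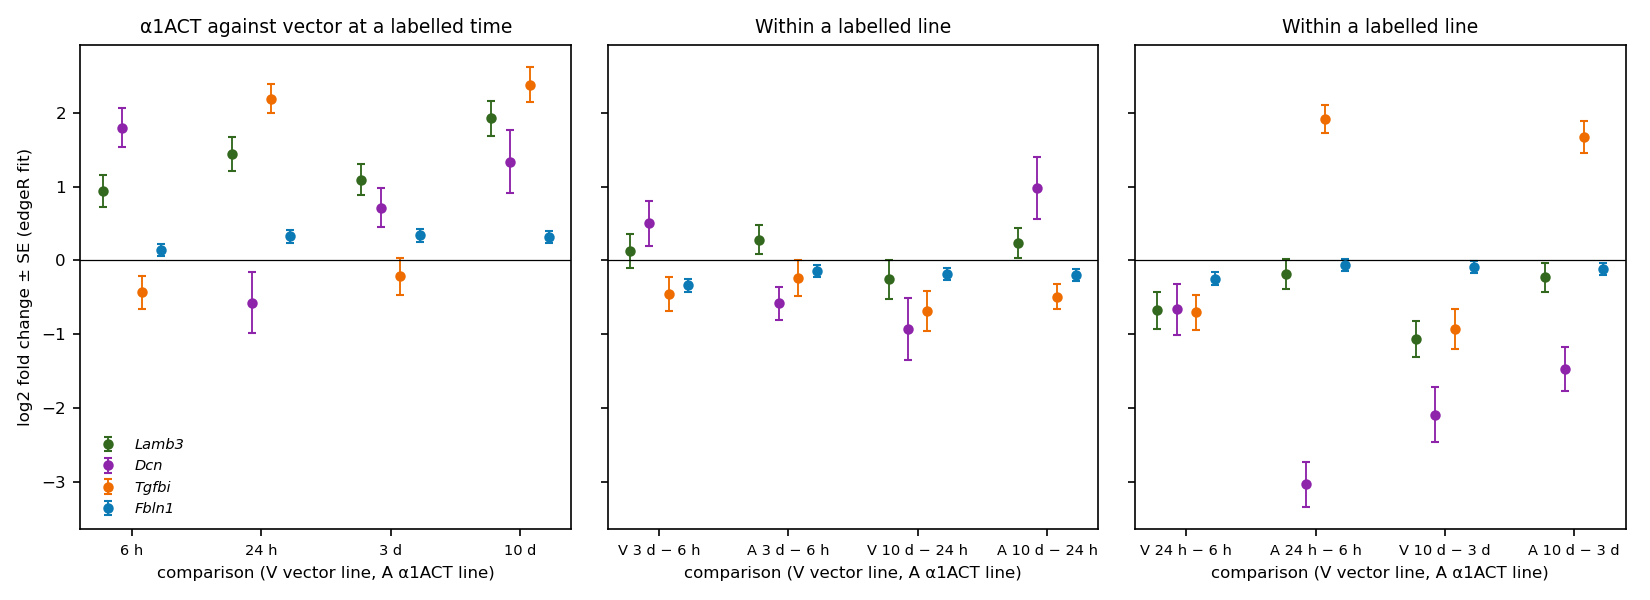
log2 fold change ± SE from the edgeR fit (vertical axis) for Lamb3, Dcn, Tgfbi and Fbln1 in the 4 comparisons of the labelled lines and in 8 comparisons of times within a labelled line (V vector, A α1ACT). Col4a1 and Thbs1 are left out because groups at or near 0 counts give no usable fitted fold in most of these comparisons. Tgfbi stands at 2.19 and 2.38 at 24 h and 10 d in the left panel and below 0 at 6 h and 3 d.

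Counted over the 6 measured members, α1ACT was higher than vector for 2 and lower for 1 at 6 h, where 41.6% of all genes tested passed an adjusted p of 0.05 in edgeR in either direction (20.5% higher, 21.2% lower). At 24 h, 3 members were higher and 1 lower (background 55.5%: 26.6% higher, 28.8% lower). At 3 d, 3 were higher and 1 lower (39.4%: 19.9% higher, 19.4% lower), and at 10 d, 4 were higher and 1 lower (58.9%: 29.5% higher, 29.4% lower). In the vector line, 1 member was higher and 4 were lower at 24 h than at 6 h (background 61.5%: 31.6% higher, 29.9% lower), and likewise at 10 d against 3 d (64.2%: 33.2% higher, 31.0% lower). In the α1ACT line, 2 were higher and 1 lower in both comparisons (44.1%: 21.7% higher, 22.4% lower; 44.6%: 21.8% higher, 22.8% lower). In the comparisons of 3 d with 6 h, 1 of 6 members was lower in the vector line (background 1.47%, of which 0.33% lower) and 0 were called in the α1ACT line (1.06%). In those of 10 d with 24 h, 0 were called in either line (7.44% in vector, 4.62% in α1ACT). DESeq2 also called 0 in these 3 comparisons. At an unadjusted p of 0.05, edgeR and DESeq2 each had 1 member in α1ACT 3 d against 6 h (Dcn in edgeR) and 3 in each comparison of 10 d with 24 h (Dcn, Fbln1 and Tgfbi in edgeR). Over both pairs, 2 were lower (15.6%, with 7.37% lower). The members were chosen on these levels, so nothing is read from the counts, and the comparisons share groups with each other.

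**Figure D3:**
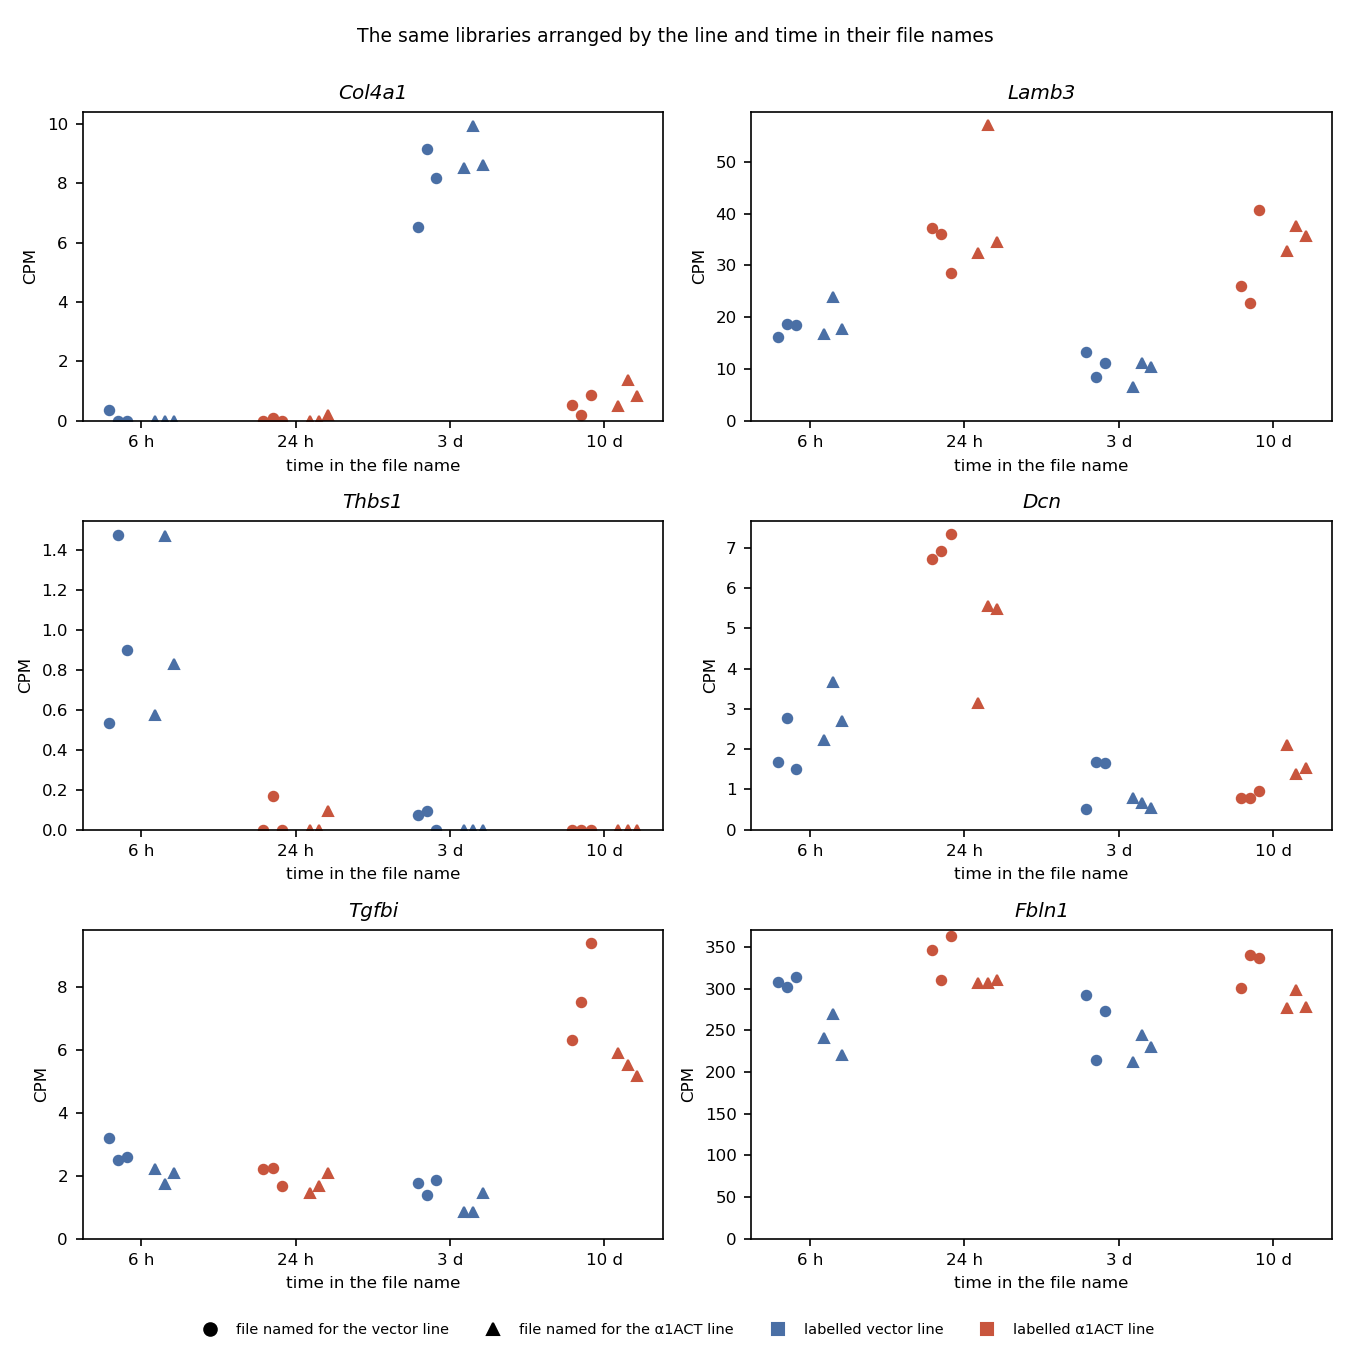
The same CPM values (vertical axes, from 0) arranged by the time in the file name (horizontal axis), with circles for files named for the vector line, triangles for files named for the α1ACT line, and colours for the labelled line. Circles and triangles at a file-name time lie beside each other for Col4a1 and Thbs1, and the 6 libraries of 10 d stand above all others for Tgfbi.

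Among the other genes of the basement membrane, a row was found for 6 of 8 collagens, 6 of 10 laminin chains and 10 of 13 nidogens and proteoglycans. Those without a row were not measured. Of those with a row, 1 collagen, 3 laminin chains and 3 nidogens or proteoglycans passed the filter on low counts. Of the type IV and other basement membrane collagens with a row, Col4a3 had 3 counts and Col4a4 1 count in all 24 libraries together, Col15a1 had none, and Col18a1 passed the filter on low counts. Of the laminin chains, Lama5, Lamb2 and Lamc1 passed the filter, with means of 61.5, 8.62 and 94.3 CPM over the 24 libraries. Nid2, a nidogen that links laminin to collagen, had 1 count, and Sparc, a collagen-binding matrix protein, had 55. Agrn, the heparan sulfate proteoglycan agrin, passed the filter.

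Lamc1, the γ chain of most laminins, was lower in α1ACT than in vector at all 4 labelled times, the opposite side from Lamb3. Its mean was 140 ± 1.10 CPM in vector 6 h and 93.5 ± 6.57 CPM in α1ACT 6 h (SD, n = 3), and its log2 fold changes were −0.58 ± 0.07 at 6 h, −0.75 ± 0.07 at 24 h, −0.58 ± 0.07 at 3 d and −0.63 ± 0.07 at 10 d (SE), with edgeR adjusted p between 2.15e-09 and 3.43e-07. Lama5, an α chain of epithelial and vascular laminins, was lower in α1ACT at 24 h (−1.07 ± 0.12, SE, adjusted p = 4.26e-08, edgeR) and 10 d (−0.95 ± 0.12, SE, adjusted p = 2.92e-07, edgeR). At 6 h and 3 d its values were 0.05 ± 0.11 and −0.11 ± 0.11 (SE). Lamb2, a β chain like Lamb3, was higher in α1ACT at 6 h (0.75 ± 0.23, SE, adjusted p = 0.00915, edgeR) and 3 d (0.83 ± 0.23, SE, adjusted p = 0.00481, edgeR). The values of Lamb2 at 24 h and 10 d were −0.21 ± 0.23 and −0.36 ± 0.25 (SE), and its 3 d call was lost without the libraries numbered 3 (adjusted p = 0.0708, edgeR). Agrn was higher in α1ACT at 3 d (0.31 ± 0.10, SE, adjusted p = 0.0116, edgeR). For Col18a1, Smoc1 and Smoc2 no comparison of the lines passed.

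A list of 218 other matrix genes, written with earlier results known, had 184 with a row and 72 tested. In α1ACT against vector, 17 of the 72 were higher and 15 lower at 6 h (44.4% called; median log2 fold change 0.05, against 0.00 over all genes tested). At 24 h, 11 were higher and 25 lower (50%; median −0.21 against −0.02). At 3 d, 19 were higher and 11 lower (41.7%; 0.10 against 0.01), and at 10 d, 12 were higher and 27 lower (54.2%; −0.19 against 0.01). The share called was near that of all genes at each time, and lower calls outnumbered higher ones at 24 h and 10 d but not at 6 h and 3 d.

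By role, 6 of 12 genes of collagen processing were higher and 1 lower at both 6 h and 3 d, among them Loxl3, which crosslinks collagen (0.97 ± 0.13 at 6 h, SE, adjusted p = 1.22e-06, edgeR). At 24 h, 2 were higher and 4 lower, and at 10 d 4 were higher and 2 lower. Of 20 matrix proteases and their inhibitors, 4 were higher and 6 lower at 6 h and at 3 d, 3 higher and 7 lower at 24 h, and 2 higher and 8 lower at 10 d. Of 9 matrix receptors, 2 were higher and 2 lower at 6 h, 1 higher and 4 lower at 24 h, 3 higher and 1 lower at 3 d, and 2 higher and 6 lower at 10 d. Of 9 matrix glycoproteins, 2 were higher and 1 lower at 6 h, 1 higher and 4 lower at 24 h and at 10 d, and 3 higher and 0 lower at 3 d. Of 7 genes of TGF-β signalling, 0 were higher and 3 lower at 6 h, 1 higher and 2 lower at 24 h, and 0 higher and 2 lower at 3 d and at 10 d. Over all genes tested, 20.5% were higher and 21.2% lower at 6 h, 26.6% and 28.8% at 24 h, 19.9% and 19.4% at 3 d, and 29.5% and 29.4% at 10 d. Many of the counts by role are near these shares, and with 7 to 20 genes a role none is called particular to its role.

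**Figure D4:**
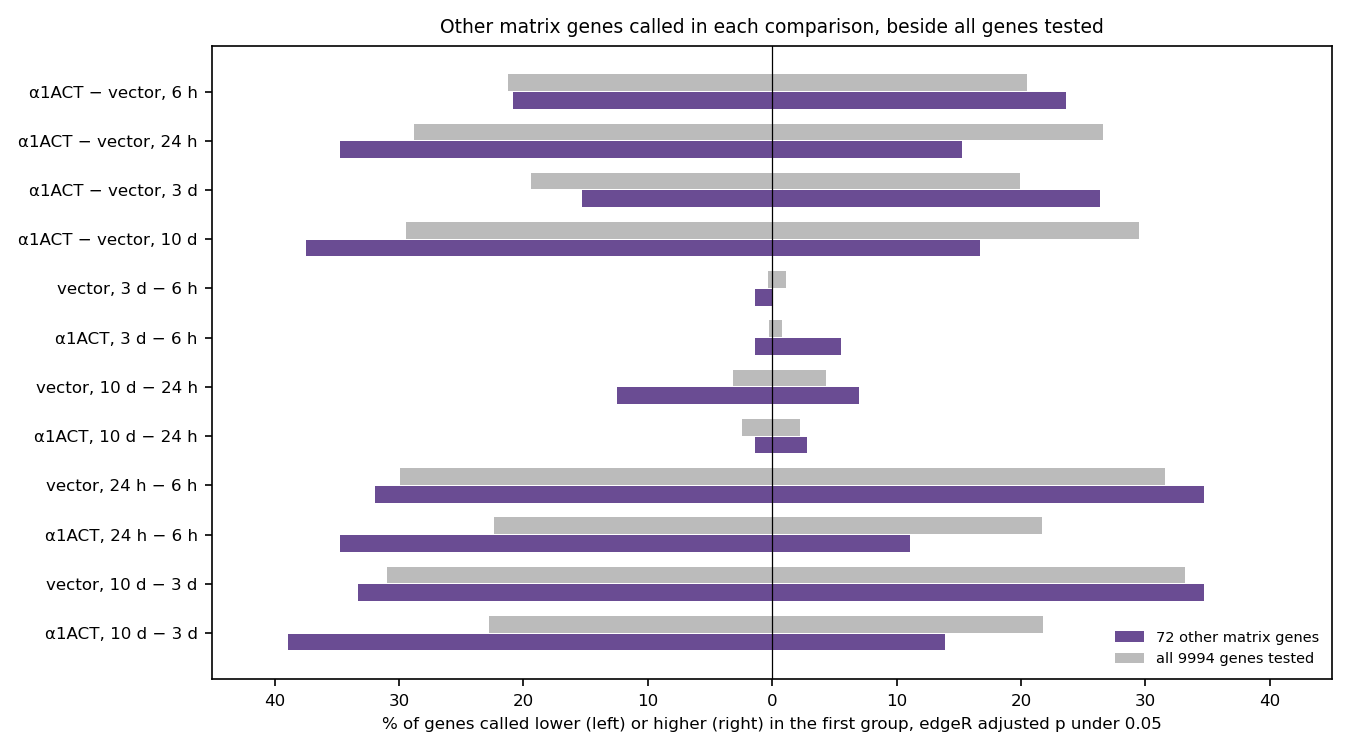
Percentage of genes called lower (left) or higher (right) in the first group of each of 12 comparisons, edgeR adjusted p of 0.05, for the 72 other matrix genes (purple) and all genes tested (grey). At 24 h and 10 d 34.7% and 37.5% of the matrix genes were lower in α1ACT, beside 28.8% and 29.4% of all genes.

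Mmp15, a membrane-bound matrix metalloproteinase, was higher in α1ACT at 6 h (1.26 ± 0.13, SE, adjusted p = 2.60e-08, edgeR) and 3 d (1.02 ± 0.12, SE, adjusted p = 3.51e-07, edgeR). Emilin1, an elastic fibre glycoprotein, went with it at 0.97 ± 0.10 and 0.95 ± 0.10 (SE). Tnn, a tenascin, was higher in α1ACT at 24 h (1.15 ± 0.26, SE, adjusted p = 0.000516, edgeR) and 10 d (1.83 ± 0.29, SE, adjusted p = 6.18e-06, edgeR). The means of Tnn were 0.892 ± 0.154 CPM in vector 10 d and 3.21 ± 0.529 CPM in α1ACT 10 d (SD, n = 3).

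At 24 h and 10 d Timp2, an inhibitor of metalloproteinases, was also higher (0.87 ± 0.22 and 1.09 ± 0.22, SE), with the 24 h call lost without the libraries numbered 1 (adjusted p = 0.0521, edgeR). Plat, the tissue plasminogen activator, was lower in α1ACT at 3 d (−0.77 ± 0.13, SE) and higher at 10 d (1.21 ± 0.15, SE). Smad7, an inhibitor of TGF-β signalling, was lower at 24 h (−0.97 ± 0.10, SE) and 10 d (−0.94 ± 0.10, SE). Col11a2, a fibrillar collagen chain, was lower at 24 h (−1.08 ± 0.18, SE). Serpine2, a protease inhibitor, was higher at 24 h (0.86 ± 0.24, SE), a call lost without the libraries numbered 1 (adjusted p = 0.101, edgeR). Mmp16 was lower at 3 d (−0.70 ± 0.23, SE) and 10 d (−1.18 ± 0.32, SE). The 3 d call of Mmp16 was lost without vector 3 d replicate 3 (adjusted p = 0.0792, edgeR), without α1ACT 3 d replicate 2 (0.0504) or 3 (0.0698) and without the libraries numbered 3 (0.235), and its 10 d call without the libraries numbered 2 (0.167).

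The comparisons within a labelled line of 3 d with 6 h and 10 d with 24 h gave fewer calls among the 72 genes than the comparisons above. For 3 d against 6 h they were 1 in vector (1.39%, beside 1.47% of all genes tested) and 5 in α1ACT (6.94% beside 1.06%). For 10 d against 24 h they were 14 in vector (19.4% beside 7.44%) and 3 in α1ACT (4.17% beside 4.62%). These counts rest on few libraries: with 1 library or all libraries of 1 number left out they ranged from 0 to 12, 0 to 9, 0 to 19 and 0 to 6, in the same order. Mmp13, an interstitial collagenase, was lower in all 4, by log2 fold changes of −1.92 ± 0.47, −2.26 ± 0.45, −2.52 ± 0.46 and −2.33 ± 0.46 (SE). Over both pairs of times it was lower in labelled 3 d and 10 d than in 6 h and 24 h by −2.26 ± 0.23 (SE, adjusted p = 1.71e-07, edgeR). Under the file names this is α1ACT against vector. The 12 libraries of labelled 6 h and 24 h ranged from 58.2 to 334 CPM and the 12 of 3 d and 10 d from 23.7 to 57.0 CPM. The calls of the 4 separate comparisons were each lost without some libraries, with adjusted p up to 0.186 in edgeR when 1 library was left out. Over both pairs, 12 of the 72 genes were higher and 9 lower (29.2% called, beside 15.6% of all genes tested), Serpine2 among the former (0.81 ± 0.12, SE, adjusted p = 3.55e-05, edgeR).

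The genes whose group means were most like each member, by Pearson's r of mean log2 CPM over the 8 labelled groups, are a description with no test. They share the groups, libraries and depth of the member, and 9308 genes were compared, 9309 for Thbs1. Of the 3 most like each member, those reported are as follows. For Col4a1 they were Arhgef2 (r = 0.998), Slc25a39 (0.998) and Gtpbp2 (0.996), and for Lamb3 Idh2 (0.991) and Gstp1 (0.990). For Thbs1 they were Kcnk3 (0.994), Il17ra (0.993) and Tm4sf4 (0.993), and for Dcn Rps6ka1 (0.984), Map4k2 (0.966) and Aldh9a1 (0.962). For Tgfbi they were Armc1 (0.984), Rfx5 (0.979) and the collagen gene Col16a1 (0.975), and for Fbln1 Usp54 (0.972), Lefty2 (0.960) and Rhot2 (0.958). The likeness depended on averaging: by r over the 24 libraries, Arhgef2, Gtpbp2, Idh2 and Aldh9a1 stayed among the 3 most like their member and 14 of the 18 genes compared did not, with Lefty2 at 0.548, Rfx5 at 0.742 and Map4k2 at 0.724. No member was among the 3 genes most like another. Between members, r over the 8 groups ran from −0.76 for Col4a1 with Dcn to 0.76 for Lamb3 with Fbln1.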

How the data were processed

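Per the labels' protocols, a stranded total RNA kit with removal of ribosomal RNA was used, with 100-base paired reads from 3 lanes of a HiSeq2500. The values the authors deposited are raw read counts per gene symbol, a table per library, ending in 5 summary lines that were left out. The submitters' processing notes name build rn5, FastQC 0.11.2, Picard 1.117, TopHat2 2.0.10, HTSeq 0.5.4p5 and edgeR. What each did, and whether counting used strand, the sources do not say, so overlapping antisense genes may share reads.

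The deposited counts were fitted with edgeR 4.0.16 in R 4.3.3 (quasi-likelihood F-test, TMM factors 0.981 to 1.02, all 24 libraries, 1 coefficient per group, 16 residual degrees of freedom, filter by group with minimum count 10 and total 15). P-values of the 9994 genes left were adjusted by Benjamini-Hochberg, with a threshold of 0.05. The code was tested on simulated data. Alternatives were DESeq2 1.42.0, other scaling factors, no filter, only the groups compared, a replicate block and libraries left out. Where a group averaged few counts, summed counts scaled by library size were compared with exact 95% intervals, or against a floor of 3 counts over the group. Of the other matrix genes, up to 3 called per direction and comparison with a mean of at least 2 CPM are named; some genes the rules select are not reported here. Laminins and other basement membrane genes outside that rule were singled out after their values were seen. The members and lists were chosen with earlier results of these data known. The planned ratio of Col4a1 to Col4a2 was not computed, since Col4a2 is not analysed here. Replicate numbers were shared by all groups. Deviations of same-numbered libraries had r of 0.124, 0.318 and 0.139 between α1ACT 3 d and vector 3 d, where the numbers were taken to pair. Other comparisons also had positive r in every pair. They were 0.164, 0.342 and 0.098 for α1ACT against vector at 6 h, and 0.0952, 0.246 and 0.0916 for α1ACT 3 d against 6 h. Some held a negative r, such as −0.0319 for α1ACT against vector at 10 d. In each of the others at least 1 r was under the cutoff used, so the numbers were not taken to pair. The labels call replicates biological without saying that the cultures were separate, so the spread behind each p-value may be technical.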

Additional observations from a re-analysis of the deposited data

Results flagged for a closer look

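The libraries of Tgfbi lay on opposite sides at different labelled times. Tgfbi is a member chosen with these levels known, so this is a description. In α1ACT against vector its log2 fold change was −0.43 at 6 h, which did not pass the threshold but had every α1ACT library below every vector library, −0.22 at 3 d, where the libraries overlapped, 2.19 at 24 h and 2.38 at 10 d, with every α1ACT library above; the pairwise differences between times were not tested. Under the file names these are comparisons of times within a line. A lack of overlap between the labelled lines was common, at 51.8% of all genes tested at 6 h, 60.4% at 24 h, 52.5% at 3 d and 63.0% at 10 d.

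The line difference at 24 h and 10 d differed from that at 6 h and 3 d, by the test of that difference (edgeR), for 45 of the 72 other matrix genes (62.5%; 13 with a higher and 32 with a lower value), near the 64.3% of all genes tested. The 6 named by the rule for other matrix genes follow. Tnn differed by 1.86 (adjusted p = 5.01e-07), with line differences of −0.57, 1.15, −0.16 and 1.83 at 6 h, 24 h, 3 d and 10 d. Plat differed by 1.53, with −0.38, 0.70, −0.77 and 1.21. Timp2 differed by 0.70, with 0.24, 0.87, 0.32 and 1.09, and this call was lost without the libraries numbered 1 (adjusted p = 0.0696, edgeR). Itgb5 differed by −1.21, with 0.57, −0.51, 0.40 and −0.93. Mmp19 differed by −1.11, with 0.39, −0.78, 0.14 and −0.91. Lamb2 differed by −1.08, with 0.75, −0.21, 0.83 and −0.36.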

How the results depend on the processing

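No result reversed under the alternatives run. Of 2778 values of log2 fold changes recomputed, 2530 kept their direction and side of the threshold. The counts of calls that moved most are in the comparisons of 3 d with 6 h and of 10 d with 24 h. Among other matrix genes, vector 3 d against 6 h went from 1 to 2 with DESeq2, with no filter, with only the groups compared and with the replicate block. Vector 10 d against 24 h went from 14 to 8 with only the groups compared, and α1ACT 10 d against 24 h from 3 to 1, or 5 with no filter. Over all genes, only the groups compared gave 312 calls against 744 in vector 10 d against 24 h and 71 against 462 in α1ACT 10 d against 24 h. Vector 3 d against 6 h gave 226 with no filter and 258 with the replicate block against 147, and α1ACT 3 d against 6 h 193 with the block against 106. In these comparisons the replicate numbers were not taken to pair. Members called in the contrast of the line difference at 24 h and 10 d against 6 h and 3 d went from 3 to 5 with DESeq2. Over all genes tested that contrast gave 6252 calls with DESeq2 against 6431 in edgeR. The members were chosen on these levels, so their counts are a description. For Thbs1, with 0 counts in some groups, the fit gave no usable SE there. The cause of these changes was not tested.

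With 1 library or all libraries of 1 replicate number left out, other matrix genes called in α1ACT against vector ranged from 18 to 35 (32 with all libraries) at 6 h and from 17 to 30 (30) at 3 d. In the vector line they ranged from 0 to 12 (1) for 3 d against 6 h, with 0 without vector 3 d replicate 1 or 3 or vector 6 h replicate 1. For vector 10 d against 24 h they ranged from 0 to 19 (14), with 6 and 7 without vector 10 d replicates 2 and 3, and 3 and 6 without vector 24 h replicates 1 and 3. In the α1ACT line they ranged from 0 to 9 (5) for 3 d against 6 h, with 0 and 1 without α1ACT 3 d replicates 1 and 3, and 1 and 3 without α1ACT 6 h replicates 1 and 2. For α1ACT 10 d against 24 h they ranged from 0 to 6 (3), with 1, 5 and 0 without α1ACT 10 d replicates 1, 2 and 3, and 1 without α1ACT 24 h replicate 2. The ranges were 20 to 35 (33) for α1ACT 24 h against 6 h, 23 to 35 (38) for α1ACT 10 d against 3 d, and 7 to 30 (21) for 3 d and 10 d against 6 h and 24 h. Over all genes tested, calls ranged from 2540 to 4070 (4162) in α1ACT against vector at 6 h. In the α1ACT line they ranged from 2546 to 4622 (4409) for 24 h against 6 h and from 2950 to 4348 (4454) for 10 d against 3 d.

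Members called ranged from 2 to 4 (4 with all libraries) in α1ACT against vector at 3 d, from 0 to 1 (1) in vector 3 d against 6 h, and from 0 to 1 (0) in α1ACT 3 d against 6 h and in both comparisons of 10 d with 24 h. They ranged from 3 to 5 (5) in vector 24 h against 6 h, where 3 were left without vector 24 h replicate 2, from 0 to 2 (2) for 3 d and 10 d against 6 h and 24 h, and from 1 to 4 (3) in the contrast of the line difference. Calls over all genes tested moved too. They ranged from 2457 to 3657 (3934) in α1ACT against vector at 3 d. For 3 d against 6 h they were 5 to 478 (147) in vector and 7 to 358 (106) in α1ACT. For 10 d against 24 h they were 79 to 1132 (744) and 4 to 820 (462). For vector 24 h against 6 h they were 5062 to 5935 (6149). Over both pairs of times they were 313 to 2049 (1562), and for the line difference 5358 to 6456 (6431). Where the numbers were taken to pair, at labelled 3 d, the replicate block gave 4 members called and 32 other matrix genes, against 4 and 30, and it ended no call of a member there.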
